A study of Mus musculus with 24 samples.

Results

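The response difference between neurons given AcP together with AcPb and neurons given AcP alone was taken from 12 of the 24 arrays of the series, over 45037 of 45077 probe sets. The 12 arrays are those whose titles name AcP or AcP+AcPb, each with a control or an IL-1 stimulus, and the 40 probe sets left out are the array's own controls. The response of an arm is the log2 change from its control arrays to its IL-1b arrays, and the response difference is the AcP+AcPb response minus the AcP response. It is also the stimulated part (AcP+AcPb IL-1b minus AcP IL-1b) less the resting part (AcP+AcPb control minus AcP control). Each difference was split in this way, which bears on whether AcPb dampens the AcP response. All cells were cultured embryonic cortical neurons of Il1rap-/- mice, which lack their own accessory protein, kept without serum in Neurobasal medium with B-27. The AcP control, AcP IL-1b, AcP+AcPb control and AcP+AcPb IL-1b groups held 3 arrays each. The stimulated cultures received IL-1b at 10 ng/ml, the others a control stimulus, and both were taken at 4 h. How the receptor chains were introduced, how many cultures or litters were used, and the age of the embryos are not given in the sources used here.

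IL-1b binds the receptor IL1R1, which signals once the accessory protein AcP joins it and brings in the adaptor MyD88 and the IRAK kinases. That signal frees NF-kB and starts MAP kinases, and the genes that follow include chemokines, adhesion molecules, acute phase proteins and the inhibitors that end the signal, such as IkB-alpha. AcPb is a form of AcP made by alternative splicing in neurons of the central nervous system, with a different intracellular end, and has been described as a chain that does not carry this signal by itself and can limit it.

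The 12 arrays had medians of 55.1 to 66.4 intensity units, with 16.4% to 18.2% of probe sets on each below 0. Values are probe set intensities, and log2 values are log2(intensity + 16) after values below 0 were set to 0. Replicates were widest apart among AcP controls, at a median SD of 0.191 on the log2 scale, and the other 3 groups had 0.119 to 0.135. Neuron markers were high on all 12 arrays, with a list mean of 11.28 to 11.45 log2 units, whereas the microglia and macrophage list lay at 5.19 to 5.44 and Aif1, Tmem119, C1qa and C1qc had means below 0. Astrocyte markers were present at 10.35 to 10.70, so the cultures were not of neurons alone. Il1rap, the gene of AcP and AcPb, lay between 108 and 143 on its brightest probe set, with a response difference of -0.07 ± 0.11 (SE). On another Il1rap probe set the stimulated part was 0.37 ± 0.10 and the groups did not overlap, but the response difference of 0.42 ± 0.14 was not called (limma, adjusted p = 1). Il2ra, the gene of CD25, had a difference of -0.63 ± 0.54 on a probe set other than its brightest. There it read 8.52 to 38.8 in AcP controls and 14.3 to 18.5 in the CD25 controls of the series. An array need not probe the stretch that was introduced, so these levels check no label.

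No probe set had a response difference at an adjusted p under 0.05 (limma, Benjamini-Hochberg over 45037 probe sets, 0% called). At an unadjusted p under 0.05 there were 1925, or 4.27%, where 5% of all probe sets would be 2252. The lowest adjusted p was 0.062. With 1 array left out the count ran from 0 to 16, the highest without AcP control 3, and it was 10 without AcP+AcPb control 3. The standard error of the difference had a median of 0.214 log2 units over all probe sets.

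The 6 genes with the smallest p in each direction are given here as uncalled differences. Gnl3l, a nucleolar GTP-binding protein gene, read 1952, 1953 and 1938 in AcP controls, 1986, 1921 and 1920 in AcP+AcPb controls, 1997, 1993 and 2087 in AcP IL-1b, and 1627, 1619 and 1611 in AcP+AcPb IL-1b. Its controls overlapped and its stimulated arrays did not, so its difference of -0.32 ± 0.03 (adjusted p = 0.062) sat in the stimulated part, which was called at -0.32 ± 0.02 (adjusted p = 0.0035). Pkm, the gene of pyruvate kinase in glycolysis, had a difference of -0.45 ± 0.05 (adjusted p = 0.21), again with the stimulated part called, at -0.39 ± 0.04 (adjusted p = 0.034). Trip12, a ubiquitin ligase gene, differed by -0.25 ± 0.04, and Steap3 and Col8a1 by -1.84 ± 0.24 and -0.80 ± 0.12 at intensities of at most 32.2 on all 12 arrays. Mfsd4b5, at most 6.89, differed by -0.45 ± 0.05 (adjusted p = 0.13). On the positive side were Strn4 at 0.37 ± 0.05, Lsm7, an RNA-processing gene, at 0.79 ± 0.10, Col4a5, a basement membrane collagen gene, at 0.80 ± 0.11, and Inhba, which encodes the activin A subunit, at 0.98 ± 0.14. B3galt5 and the dim Cyp2j13 differed by 1.34 ± 0.20 and 1.75 ± 0.25. Apart from Gnl3l, Pkm and Mfsd4b5, adjusted p-values of these lay between 0.25 and 0.43 (limma). Other probe sets of Gnl3l, Steap3, Col8a1, Col4a5 and B3galt5 had smaller or opposite differences, such as 0.54 ± 0.64 for Gnl3l, and those of Trip12 ran from -0.35 to 0.27.

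The genes that IL-1b raised were then taken from the mean response of the 2 arms. When the groups have equal spread, its estimate is independent of the estimates of the response difference and of both its parts. The p-values of a probe set share its residual variance, though. A choice by adjusted p can favour probe sets with little spread, which can raise their counts by unadjusted p and by lack of overlap. By the mean response 83 probe sets of 62 genes were raised (0.184% of all tested) and 16 were lowered (0.0355%). Tested singly, the AcP response had 57 calls (0.127%) and the AcP+AcPb response 26 (0.0577%), and these counts do not test the difference between the arms. Of the 83 raised probe sets, 62 (74.7%) had the smaller response with AcP+AcPb, against 43.0% of all probe sets and 49.1% of those with a mean intensity over 100. Their median response was 1.5 with AcP and 1.17 with AcP+AcPb, and the median of their differences was -0.21 log2 units, against 0.00 over all probe sets. At an unadjusted p under 0.05, 12 raised probe sets had a difference below 0, against 1.69% of all probe sets, and 8 above 0, against 2.59%. The size of this median depended on single arrays: it was 0.00, with 50% smaller, without AcP+AcPb IL-1b 1, and -0.36 without AcP+AcPb IL-1b 3.

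**Figure D1:**
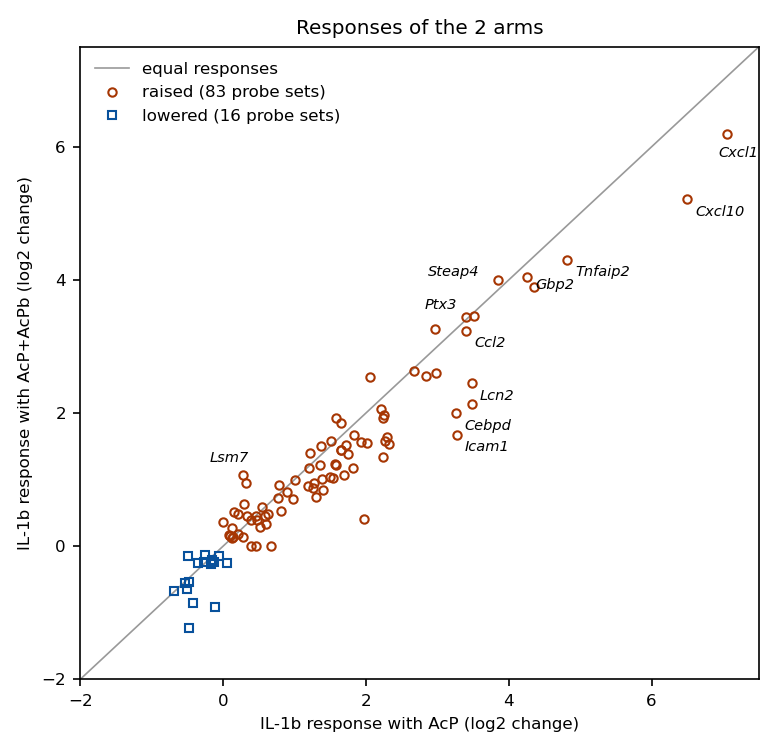
IL-1b response with AcP (x axis, log2 change) against the response with AcP+AcPb (y axis, log2 change) for the 83 raised (circles) and 16 lowered (squares) probe sets, with a grey line of equal responses. Of the raised probe sets, 62 lie below the line, Icam1 and Cebpd among the farthest, while Ptx3 and Steap4 lie on or just above it.

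Among the raised probe sets the median resting part was 0.14 and the median stimulated part -0.02, both were 0.00 over all probe sets, and the difference between the medians was not tested. With 1 array left out the resting median ran from 0.06 (without AcP+AcPb control 3 or AcP+AcPb IL-1b 1) to 0.20, and the stimulated median from -0.17 (without AcP+AcPb IL-1b 3) to 0.09 (without AcP+AcPb IL-1b 1), so the ranges overlap in size. The resting part was above 0 for 62 of the 83, while the stimulated part was below 0 for 45 and above 0 for 38. Of the 62 with the smaller AcP+AcPb response, the resting part was the larger of the parts for 45 and the stimulated part for 17. All 3 AcP+AcPb controls lay above all 3 AcP controls for 21 of the 83, against 3.86% of all probe sets, and below them for 8, against 6.52%. All 3 AcP+AcPb IL-1b arrays lay below all 3 AcP IL-1b arrays for 7, against 10.1% of all probe sets, and above them for 4, against 8.05%. None of the raised probe sets apart from Lsm7 was called in the resting part.

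A split at a mean response of 2-fold, chosen after seeing the data, separated these patterns. Of 52 probe sets raised at least 2-fold (37 genes), 43 (82.7%) had the smaller response with AcP+AcPb, with medians of -0.35 for the difference, 0.29 for the resting part and -0.03 for the stimulated part. Without AcP+AcPb IL-1b 1 the share was 64.9%, the median difference -0.21 and the stimulated part 0.13, and without AcP+AcPb IL-1b 3 they were 91.1%, -0.54 and -0.21. Their controls were higher with AcP+AcPb without overlap for 18, and lower for 0. Of the 31 raised under 2-fold, 19 (61.3%) were smaller and the median difference was -0.01. Here the resting part ran both ways, with 3 higher and 8 lower without overlap (3.86% and 6.52% of all probe sets). Lsm7, the clearest of the lower ones, read 652, 574 and 677 in AcP controls and 298, 334 and 344 in AcP+AcPb controls.

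**Figure D2:**
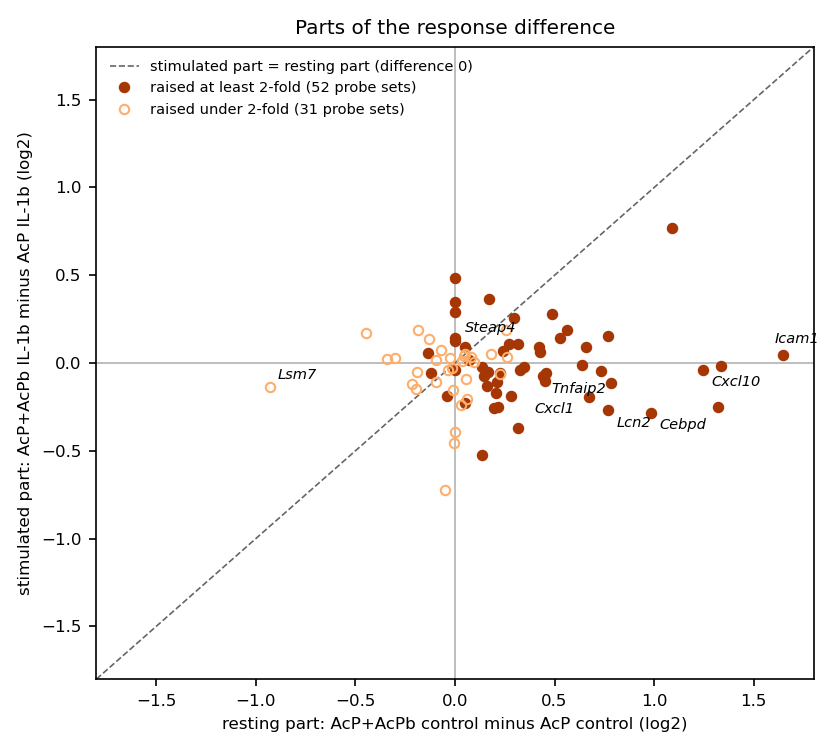
Resting part (x axis, log2 units) against stimulated part (y axis, log2 units) of the response difference for the 83 raised probe sets, filled where raised at least 2-fold and open where raised less. Points below the dashed line had the smaller response with AcP+AcPb. Most filled points spread to the right along a stimulated part near 0, with Icam1 at 1.64 and Cxcl10 at 1.25, and Lsm7 lies far to the left at -0.93.

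Chemokine genes, which draw leukocytes to a tissue, held the highest responses. Of 18 genes of the list on the array, 5 were raised and all 5 had the smaller response with AcP+AcPb, with a median difference of -0.29, a resting part of 0.24 and a stimulated part of -0.04. Over all 18 genes the median difference was -0.03, and 0 were called in the difference or either part. Cxcl10, a ligand of the T cell receptor CXCR3, read -2.38, 13.7 and 29.2 in AcP controls, 24.3, 56.4 and 82.3 in AcP+AcPb controls, 2348, 2831 and 2356 in AcP IL-1b, and 1998, 2246 and 3225 in AcP+AcPb IL-1b. Its controls overlapped by 1 array of each arm, and its stimulated groups overlapped fully. The rise was 90.5-fold with AcP and 37.2-fold with AcP+AcPb on the log2 scale with 16 added, a difference of -1.28 ± 0.60 (95% interval -2.64 to 0.07, limma adjusted p = 1). In intensity units the rises were 2498 and 2435, a difference of -63.0 ± 408.

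Cxcl1, a neutrophil-drawing chemokine, had the highest response of all. It read 1942, 2488 and 1938 in AcP IL-1b and 1577, 1673 and 2375 in AcP+AcPb IL-1b, and at most 30.3 on any control array. Its difference was -0.86 ± 0.48 on that probe set and -0.45 ± 0.28 on a brighter one, on which the controls read 129 to 232. Ccl2, which draws monocytes, read 71.5, 62.9 and 46.6 in AcP controls, 65.6, 73.9 and 81.2 in AcP+AcPb controls, 761, 986 and 646 in AcP IL-1b and 620, 743 and 1224 in AcP+AcPb IL-1b. The Ccl2 groups overlapped under both stimuli, and the difference was -0.17 ± 0.36, with an interval of -0.99 to 0.65 that holds both a smaller and a larger response. Cxcl2 and Cxcl5, also ligands of the neutrophil receptor, differed by -0.29 ± 0.38 and -0.16 ± 0.27.

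**Figure D3:**
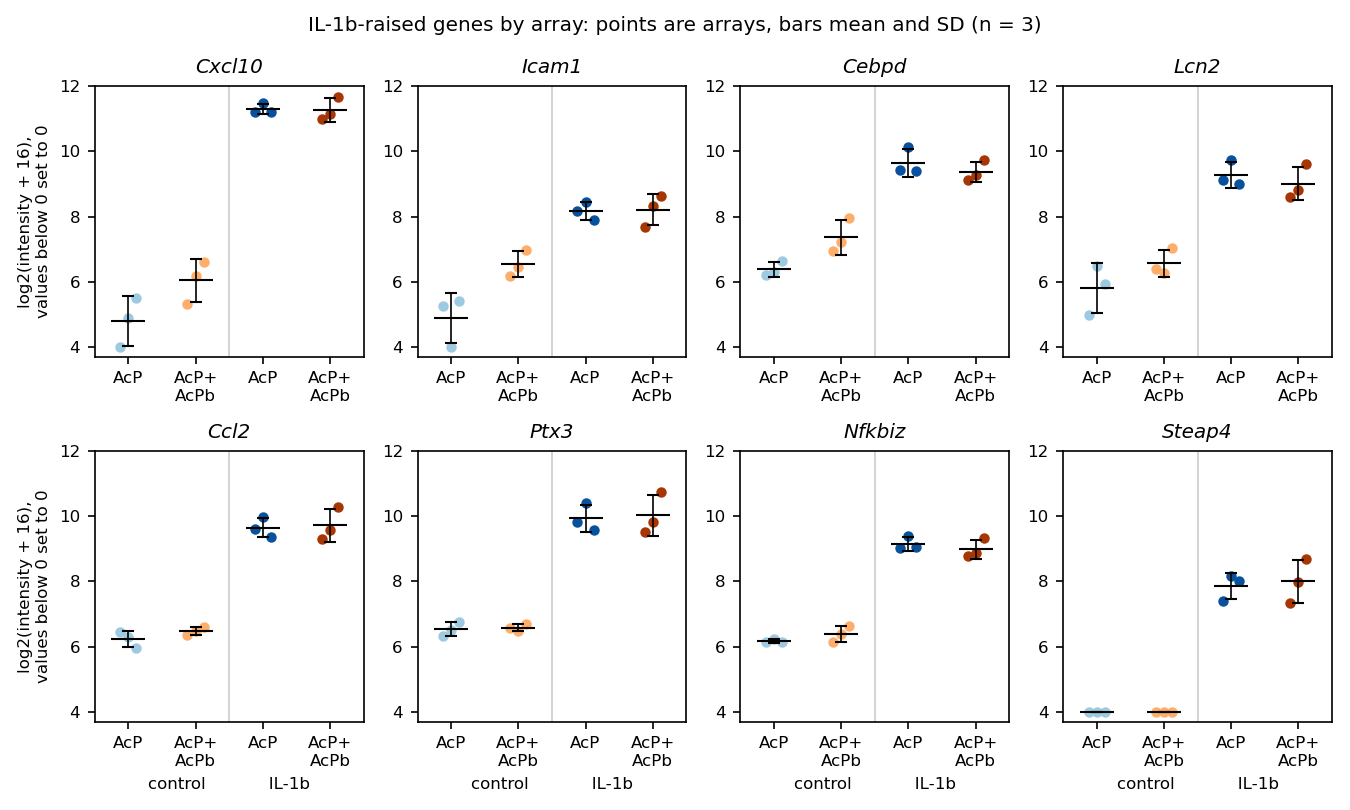
Values of 8 raised genes on each of the 12 arrays, as log2(intensity + 16) with values below 0 set to 0 (y axis), for AcP and AcP+AcPb under control (left of the line) and IL-1b (right). Points are arrays and bars the mean and SD of 3. Icam1 and Cebpd controls are higher with AcP+AcPb without overlap, all 8 genes overlap under IL-1b, and Steap4 controls are all at the floor.

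Among NF-kB subunits, inhibitors and feedback genes, 5 of 22 on the array were raised and 3 of those had the smaller response with AcP+AcPb, with medians of -0.27, 0.03 and -0.08 for the difference, the resting part and the stimulated part. Over all 22 the median difference was -0.06, with 16 below 0. Tnip2, not called as raised, had the highest difference of the list, at 1.27 ± 0.22, toward a larger response with AcP+AcPb. Its resting part was -0.88 and its stimulated part 0.39. Nfkbia, which encodes IkB-alpha, read 2674, 2781 and 2469 in AcP controls, 2515, 2909 and 2661 in AcP+AcPb controls, 4739, 5817 and 5061 in AcP IL-1b, and 4112, 4136 and 4962 in AcP+AcPb IL-1b on its brightest probe set. The controls overlapped fully and the stimulated groups by 1 array each. Its difference of -0.27 ± 0.14 lay in the stimulated part, at -0.24 ± 0.10, and the rise was 2564 units with AcP against 1709 with AcP+AcPb, a difference of -855 ± 449. The other 3 raised Nfkbia probe sets differed by -0.32, -0.47 and -0.52, and there the resting part was the larger, with all AcP+AcPb controls above all AcP controls, so the probe sets of this gene disagree on where the difference lies.

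Nfkbiz, an NF-kB cofactor gene, read 55.2, 59.5 and 54.1 in AcP controls, 54.6, 67.2 and 82.2 in AcP+AcPb controls, 499, 653 and 516 in AcP IL-1b, and 419, 449 and 622 in AcP+AcPb IL-1b. Both pairs of groups overlapped, and the difference was -0.37 ± 0.24. Nfkbie, the gene of IkB-epsilon, differed by 0.19 ± 0.31, Relb, a subunit of the second NF-kB pathway, by 0.15 ± 0.15, and Birc3, an inhibitor of cell death, by 0.06 ± 0.32 on a dimmer probe set than the list uses, none toward a smaller response with AcP+AcPb. Tnfaip2, a gene named for its response to TNF, differed by -0.52 ± 0.35 on one probe set and 0.29 ± 0.47 on another. The negative value came with controls that did not overlap, at 7.63 to 10.6 with AcP and 12.1 to 25.1 with AcP+AcPb. Tnfaip3, the gene of the ubiquitin-editing inhibitor A20, was not called as raised (mean response 0.92 ± 0.18, adjusted p = 0.13).

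Of 25 genes of the IL-1 receptor family and its first signalling steps, 0 were raised and the median difference was -0.06. The member with the most negative difference was Map3k8, a kinase that links this signal to ERK. It read 0.74, -15.7 and -3.96 in AcP controls, 8.30, -3.85 and 0.06 in AcP+AcPb controls, 14.5, 34.0 and 29.4 in AcP IL-1b, and -9.25, 12.9 and 6.11 in AcP+AcPb IL-1b. All are dim, the stimulated arrays did not overlap, and the difference of -1.10 ± 0.37 lay in the stimulated part, at -0.92 ± 0.26 (limma, adjusted p = 0.45). Il1rn, the gene of the receptor antagonist, differed by -0.78 ± 0.53, Il1r2, the decoy receptor, by -0.39 ± 0.53, and Sigirr, an inhibitory receptor, by 0.57 ± 0.34. Il1r1 had values of 5.52 or below on all 12 arrays, so its level cannot be compared here.

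Adhesion and proteolysis genes included the gene with the most negative difference among those raised at least 2-fold. Icam1, the ligand of leukocyte integrins, read 22, -11.5 and 26.8 in AcP controls, 56.5, 71.7 and 109 in AcP+AcPb controls, 269, 333 and 220 in AcP IL-1b, and 191, 301 and 377 in AcP+AcPb IL-1b. The controls did not overlap and the stimulated arrays did. The response was 9.65-fold with AcP and 3.19-fold with AcP+AcPb, a difference of -1.60 ± 0.57 (95% interval -2.90 to -0.29, limma adjusted p = 1, unadjusted p = 0.022). The whole of it was in the resting part, at 1.64 ± 0.41 (adjusted p = 0.36), with a stimulated part of 0.05 ± 0.41. In intensity units the rise was 261 with AcP and 210 with AcP+AcPb, a difference of -51.0 ± 66.0.

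Adamts1, a matrix protease gene, read 109, 111 and 107 in AcP controls, 125, 141 and 212 in AcP+AcPb controls, 305, 347 and 291 in AcP IL-1b, and 259, 293 and 325 in AcP+AcPb IL-1b. Again the controls were apart and the stimulated arrays overlapped, with a difference of -0.55 ± 0.23 (adjusted p = 1). Vcam1, an endothelial and astrocyte adhesion gene, differed by -0.13 ± 0.13. Its other probe sets, not called as raised, differed by -0.18 ± 0.22 and 0.33 ± 0.24. On the last of these the stimulated part was 0.40 ± 0.17, with all AcP+AcPb IL-1b arrays above all AcP IL-1b arrays. Over the 19 genes of the list on the array the median difference was 0.00, and the 3 raised ones had a median of -0.55. Timp1, a protease inhibitor gene, was not called as raised (adjusted p = 0.33) and differed by -1.40 ± 0.68.

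The acute phase, iron and innate defence list had 19 genes on the array, of which 4 were raised on their brightest probe set, and 2 of these had the smaller response with AcP+AcPb, with a median of -0.17 for the 4 and -0.12 for all 19. Lcn2, the gene of an iron-carrier-binding protein, read 15.5, 73.5 and 45.4 in AcP controls, 67.4, 61.5 and 116 in AcP+AcPb controls, 544, 832 and 491 in AcP IL-1b, and 375, 438 and 758 in AcP+AcPb IL-1b. Both pairs overlapped, and the difference was -1.04 ± 0.61 (95% interval -2.42 to 0.34). Ptx3, a soluble pattern recognition protein gene, read 64.2, 75.3 and 92.4 in AcP controls, 79.0, 73.7 and 87.8 in AcP+AcPb controls, 884, 1334 and 751 in AcP IL-1b, and 712, 892 and 1679 in AcP+AcPb IL-1b. It had a difference of 0.04 ± 0.44, with an interval of -0.97 to 1.05. Steap4, a metalloreductase gene, had all control arrays of both arms below 0, so its resting part was 0.00 by construction, and its difference was 0.14 ± 0.43. Cp, the gene of ceruloplasmin, was raised on a probe set other than its brightest. There it read 2.11 to 6.27 in AcP controls and 10.3 to 33.1 in AcP+AcPb controls, without overlap, and differed by -0.61 ± 0.34. Ptgs2, the gene of cyclooxygenase-2, was likewise raised on a dimmer probe set, where it differed by -0.15 ± 0.22, so with these included 6 genes of the list were raised. Tlr2, a receptor for bacterial lipoproteins, differed by -0.37 ± 0.28.

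The C/EBP, AP-1 and immediate early list had 26 genes on the array, of which 4 were raised, all with the smaller response with AcP+AcPb. Their median difference was -0.52, with a resting part of 0.33 and a stimulated part of -0.15, against a median of -0.09 over the whole list. Cebpd, a transcription factor gene of the acute phase response, read 57.5, 62.6 and 84.6 in AcP controls, 106, 132 and 233 in AcP+AcPb controls, 671, 1104 and 651 in AcP IL-1b, and 535, 598 and 827 in AcP+AcPb IL-1b. The controls did not overlap, and 1 AcP+AcPb IL-1b array lay among the AcP ones. The difference was -1.26 ± 0.44 (95% interval -2.26 to -0.27, adjusted p = 1), from a resting part of 0.98 ± 0.31 and a stimulated part of -0.28 ± 0.31. In intensity units the rise was 740.0 with AcP and 497 with AcP+AcPb, a difference of -244 ± 177. A dimmer Cebpd probe set, not called as raised, had a difference of -0.63 ± 0.57. There the resting part was -0.24 ± 0.41 and the stimulated part -0.87 ± 0.41, so the probe sets of Cebpd disagree on where the difference lies.

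Cebpb, its close relative, had controls of 152, 153 and 206 with AcP and 232, 243 and 275 with AcP+AcPb, again apart, and a difference of -0.38 ± 0.22. Atf3, a stress-induced factor gene, lay near or below 0 in all controls and read 62.3, 71.0 and 54.8 in AcP IL-1b and 16.1, 33.0 and 87.1 in AcP+AcPb IL-1b. Its difference of -0.66 ± 0.50 was mostly in the stimulated part, at -0.52 ± 0.35, whose groups overlapped. Egr2, an immediate early factor gene, differed by -0.16 ± 0.30. In the MAP kinase and cytokine feedback list, 3 of 26 were raised and all 3 had the smaller response. They were Ier3, an early gene tied to ERK, at -0.69 ± 0.32, Socs3, which ends JAK-STAT signals, at -0.36 ± 0.33, and Gadd45b, a stress sensor gene, at -0.04 ± 0.29 on its brightest probe set. Ier3 controls read 42.8 to 54.1 with AcP and 60.8 to 71.2 with AcP+AcPb.

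Of 27 interferon response genes on the array, 6 were raised, all with the smaller response with AcP+AcPb, and their medians were -0.33 for the difference, 0.33 for the resting part and 0.01 for the stimulated part. The whole list had a median difference of -0.02, with 14 of the 27 below 0. Ifit3, not called as raised, had the highest difference of the list, at 1.17 ± 0.39, toward a larger response with AcP+AcPb. Its resting part was 0.06 and its stimulated part 1.23. Irgm1, an interferon-induced GTPase gene, read 83.3, 63.2 and 115 in AcP controls, 127, 150 and 153 in AcP+AcPb controls, 228, 224 and 246 in AcP IL-1b, and 230.0, 260.0 and 257 in AcP+AcPb IL-1b. The controls stood apart, the stimulated arrays overlapped, and the difference was -0.57 ± 0.23 (unadjusted p = 0.035). The guanylate-binding protein genes Gbp2, Gbp3 and Gbp6 differed by -0.22 ± 0.43, -0.37 ± 0.36 and -0.04 ± 0.49, and Irf1, a factor that drives such genes, by -0.22 ± 0.30. Gbp7 differed by 0.19 ± 0.40 on one probe set and -0.36 ± 0.25 on a brighter one.

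Csf1, the growth factor of macrophages, was the raised member of 19 cytokine and growth factor genes on the array. It differed by -0.78 ± 0.52 on one probe set and -0.28 ± 0.21 on a brighter one. S1pr3, a sphingosine-1-phosphate receptor gene, read -54.5 to -28.6 in AcP controls and 9.27 to 29.0 in AcP+AcPb controls on the probe set with its largest response, with a resting part of 1.09 ± 0.38, a stimulated part of 0.77 ± 0.38 and a difference of -0.32 ± 0.53. On its other 2 raised probe sets the differences were -0.65 ± 0.32 and -0.90 ± 0.34, with stimulated parts of -0.01 and -0.12. Col4a3, a collagen gene also named for its mean response, had a difference above 0, toward a larger response with AcP+AcPb. In the 26 alternative settings that held its probe set the difference ran from 0.17 to 0.83 and was called in 0. Its mean response there ran from 0.31 to 3.38 and was called in 25. Another Col4a3 probe set read below 0 on all 12 arrays. Phf20l1, a chromatin reader gene named here after its values were seen, had a difference of -1.57 ± 0.34 on 1 of its 5 probe sets (limma, unadjusted p = 0.0014, adjusted p = 0.66), and its other 4 were not raised. It read -79.9, -135 and 7.51 in AcP controls, 23.8, 18.6 and 52.4 in AcP+AcPb controls, 56.8, 54.4 and 55.2 in AcP IL-1b, and 43.7, 44.2 and 44.2 in AcP+AcPb IL-1b. Both pairs of groups were apart, in opposite directions, at intensities where the added 16 weighs heavily.

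Of the 16 lowered probe sets, 11 (68.8%) had a difference below 0, with a median of -0.08. The share was 43% of all probe sets and 49.1% of those with a mean intensity over 100. For a lowered probe set a difference below 0 is a larger fall with AcP+AcPb, not a smaller response. The median response was -0.315 with AcP and -0.265 with AcP+AcPb. In intensity units 4 of the 16 had the smaller fall with AcP+AcPb. Nrarp, a Notch target gene that limits Notch signals, read 671, 704 and 631 in AcP controls and 699, 684 and 594 in AcP+AcPb controls. It read 449, 436 and 479 in AcP IL-1b and 496, 462 and 382 in AcP+AcPb IL-1b. Both pairs overlapped and the difference was -0.01 ± 0.14, with an interval of -0.33 to 0.31. It was the one lowered gene of 16 on the Notch list, whose median difference was 0.11.

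The windows before the start sites of 4 genes are printed because these genes span the patterns above, none of them called: Cxcl10 and Icam1, where the resting part was the larger, Cxcl1 with the highest response, and Nfkbia, where the stimulated part was the larger on its brightest probe set. Each is the 250 bases before the RefSeq start (GRCm38.p6), 5′ to 3′ along the gene, and capitals mark matches to the kB consensus decamer, the site bound by NF-kB.
Cxcl10, chr5:92348890-92349139, minus strand: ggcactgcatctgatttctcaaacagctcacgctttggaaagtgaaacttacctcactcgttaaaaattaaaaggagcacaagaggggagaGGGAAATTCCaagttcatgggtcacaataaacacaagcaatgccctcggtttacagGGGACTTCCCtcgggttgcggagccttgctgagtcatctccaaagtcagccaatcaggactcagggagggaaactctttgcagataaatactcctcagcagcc
Cxcl1, chr5:90890995-90891244, plus strand: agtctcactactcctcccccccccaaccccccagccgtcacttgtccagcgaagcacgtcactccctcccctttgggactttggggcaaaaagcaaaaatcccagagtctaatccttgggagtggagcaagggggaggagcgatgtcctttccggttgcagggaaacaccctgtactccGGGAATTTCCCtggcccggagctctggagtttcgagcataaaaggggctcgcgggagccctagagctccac
Nfkbia, chr12:55492648-55492897, minus strand: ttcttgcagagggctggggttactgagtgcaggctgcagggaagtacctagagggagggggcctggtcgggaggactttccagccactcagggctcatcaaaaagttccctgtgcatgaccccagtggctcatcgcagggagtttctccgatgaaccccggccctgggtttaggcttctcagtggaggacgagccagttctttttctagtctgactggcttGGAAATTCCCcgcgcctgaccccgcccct
Icam1, chr9:21015690-21015939, plus strand: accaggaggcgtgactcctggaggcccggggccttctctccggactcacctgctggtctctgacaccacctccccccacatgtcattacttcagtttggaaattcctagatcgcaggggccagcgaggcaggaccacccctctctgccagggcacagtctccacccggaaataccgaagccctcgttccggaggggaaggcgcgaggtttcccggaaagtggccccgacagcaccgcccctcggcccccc

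The search used the whole RefSeq window, 250 bases before to 50 after the start, on both strands, and 50 of the 62 raised genes had an entry. A kB match was found in 13 of the 50 (26.0%) and in 11 of 30 genes raised at least 2-fold (36.7%). The share was 6.1% of 14368 genes on the array with an entry and 5.1% of all 27025 genes with an entry. Counted by window, it was 20.6% of the 68 windows of raised genes and 4.5% of all 32851 windows. Cxcl10 held matches 159 and 103 bases before its start, and Nfkbia held a match 29 bases before. In Cxcl1 a pair of matches lay on opposite strands and overlapped by all but 1 base. No full match to the decamer was in the Icam1 window, where the stretch tggaaattcc differed from it by 1 letter. The interferon-stimulated response element was found in 14.0% of the 50 against 3.6%, and the AP-1 site TGANTCA in 10.0% against 7.5%. A match is a description of these letters and no measure of binding.

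Over all probe sets, 10 were called in the resting part (0.0222%), 1 of them raised by IL-1b (Lsm7), and 9 in the stimulated part (0.02%), 3 of them raised (the dim Mfsd4b5 and others without a symbol). Higher in AcP+AcPb controls were Sh2d6, an adaptor protein gene, by 1.39 ± 0.13, the dim Col8a1 by 0.80 ± 0.08, Fam162a, a mitochondrial gene, by 0.30 ± 0.03 and 1 probe set without a symbol. Lower were Mapk15, an atypical MAP kinase gene that read below 0 on all AcP+AcPb arrays, by -2.05 ± 0.19, Lsm7 by -0.93 ± 0.07, Ube2c, which drives the exit from mitosis, by -0.80 ± 0.09, Ankmy2 by -0.41 ± 0.04, Med15, a Mediator subunit gene, by -0.25 ± 0.03 and 1 without a symbol. Sh2d6 read 36.6, 46.2 and 41.7 in AcP controls against 148, 137 and 120.0 in AcP+AcPb controls, and 54.7, 47.8 and 55.2 against 82.3, 120.0 and 86.9 under IL-1b, so the arms were apart under both stimuli. In the stimulated part Col4a5 was higher by 0.74 ± 0.08, and Pkm, Gnl3l, Ankmy2, Gpsm1, a G protein modulator gene, by -0.44 ± 0.04, the dim Mfsd4b5 and 3 probe sets without a symbol were lower. On the called Ankmy2 probe set the parts were -0.41 and -0.45 and the response difference -0.04 ± 0.06, but its other probe sets had resting parts of -0.08 and 0.01 and stimulated parts of -0.02 and 0.13. Other probe sets of Gpsm1 had stimulated parts of -0.05 and 0.05, and those of Med15 resting parts of -0.03, 0.03 and 0.13, so these calls rest on 1 probe set of each gene. With 1 array left out the calls ran from 0 to 44 in the resting part (0 without AcP IL-1b 1 or 3, 44 without AcP control 3) and from 5 to 25 in the stimulated part (25 without AcP+AcPb IL-1b 1 or 2).

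The mean of the 83 raised probe sets was also taken on each array. AcP controls lay at 6.42, 6.40 and 6.50 log2 units and AcP+AcPb controls at 6.58, 6.66 and 6.75, with no overlap. AcP IL-1b arrays lay at 8.04, 8.28 and 8.03 and AcP+AcPb IL-1b arrays at 7.90, 8.04 and 8.36, which overlapped. The group means were 6.44 ± 0.05 and 6.66 ± 0.09 (SD, n = 3) at rest and 8.12 ± 0.14 and 8.10 ± 0.24 under IL-1b. AcP+AcPb IL-1b 3 was the highest of its group for Cxcl10, Cxcl1, Ccl2, Icam1, Lcn2, Cebpd and Ptx3 alike. A number in the array names, whose meaning is not stated, was 21 for all AcP arrays, 22 for AcP+AcPb controls 1 and 2, and 23 for AcP+AcPb control 3, the highest control, and for all AcP+AcPb IL-1b arrays. AcP and AcP+AcPb shared no such number, so whatever it stands for and the arm cannot be told apart. In the arms without AcP, the same mean was 6.56 ± 0.02 in AcPb controls, between the AcP and AcP+AcPb controls, and 7.33 ± 0.03 in CD25 controls, above both.

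**Figure D4:**
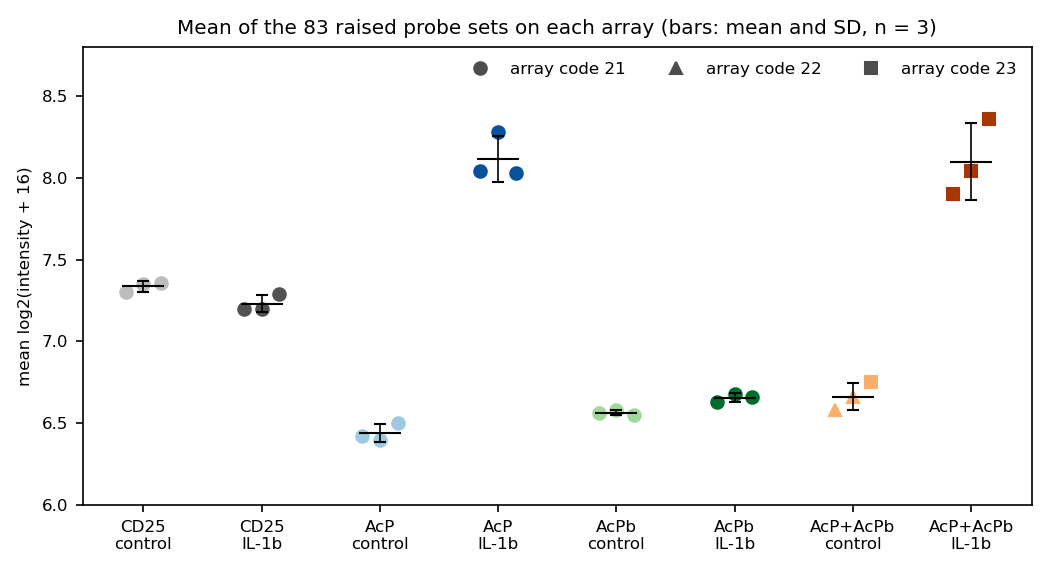
Mean log2(intensity + 16) of the 83 raised probe sets on each of the 24 arrays (y axis) by arm and stimulus, with the mean and SD of 3 and the marker shape giving the number in the array name. AcP+AcPb controls sit at 6.58 to 6.75, above the AcP controls at 6.40 to 6.50, while the IL-1b arrays of both arms overlap and CD25 controls sit at 7.30 to 7.36.

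Some markers of glia and dividing cells were apart between the controls of the arms, with 0 called in the resting part, and their part in the resting values of the raised genes was not tested. Gfap, an astrocyte filament gene that is high in reactive astrocytes, read 424, 340.0 and 682 in AcP controls, 1100, 1187 and 1794 in AcP+AcPb controls, 620.0, 544 and 622 in AcP IL-1b, and 615, 621 and 992 in AcP+AcPb IL-1b. The controls did not overlap, with a resting part of 1.49 ± 0.29 (limma, adjusted p = 0.24) and a difference of -1.21 ± 0.41, and the stimulated arrays did. Aqp4, the water channel of astrocyte endfeet, had a resting part of 0.54 ± 0.12, also without overlap. Glul, Fgfr3 and Slc1a2, also astrocyte markers, had resting parts of -0.20, -0.13 and -0.12. The astrocyte list as a whole, 11 genes, had a median resting part of 0.00, with list means of 10.37 to 10.58 in AcP controls and 10.55 to 10.70 in AcP+AcPb controls.

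Several oligodendrocyte lineage markers ran the other way from Gfap and Aqp4. The 9 genes of that list on the array had a median resting part of -0.36 and a median difference of 0.35. List means were 7.97 to 8.17 in AcP controls and 7.48 to 7.82 in AcP+AcPb controls, with Mog at a mean below 0. Pdgfra, the receptor of oligodendrocyte progenitors, read 131 to 177 in AcP controls and 36.3 to 64.4 in AcP+AcPb controls, a resting part of -1.22 ± 0.32. Mbp, a myelin protein gene, had a resting part of -1.02 ± 0.35, but Cspg4, Sox10 and Mog had resting parts of -0.05, 0.01 and 0.06. Progenitor and dividing cell markers had a median resting part of -0.21 over 13 genes and list means of 8.79 to 8.85 against 8.31 to 8.57. Mcm5, a DNA replication gene, read 116 to 158 in AcP controls and 66.5 to 87.4 in AcP+AcPb controls, whereas the progenitor filament genes Nes and Vim had resting parts of 0.32 and 0.28. Neuron markers lay at 11.33 to 11.45 and 11.31 to 11.38, and endothelial, mural and fibroblast markers at 6.07 to 6.27 and 6.11 to 6.19, with Pecam1 and Cldn5 below 0. None of these genes was called in the difference or either part, and fewer cells of a type and less RNA per cell cannot be told apart in bulk RNA.

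**Figure D5:**
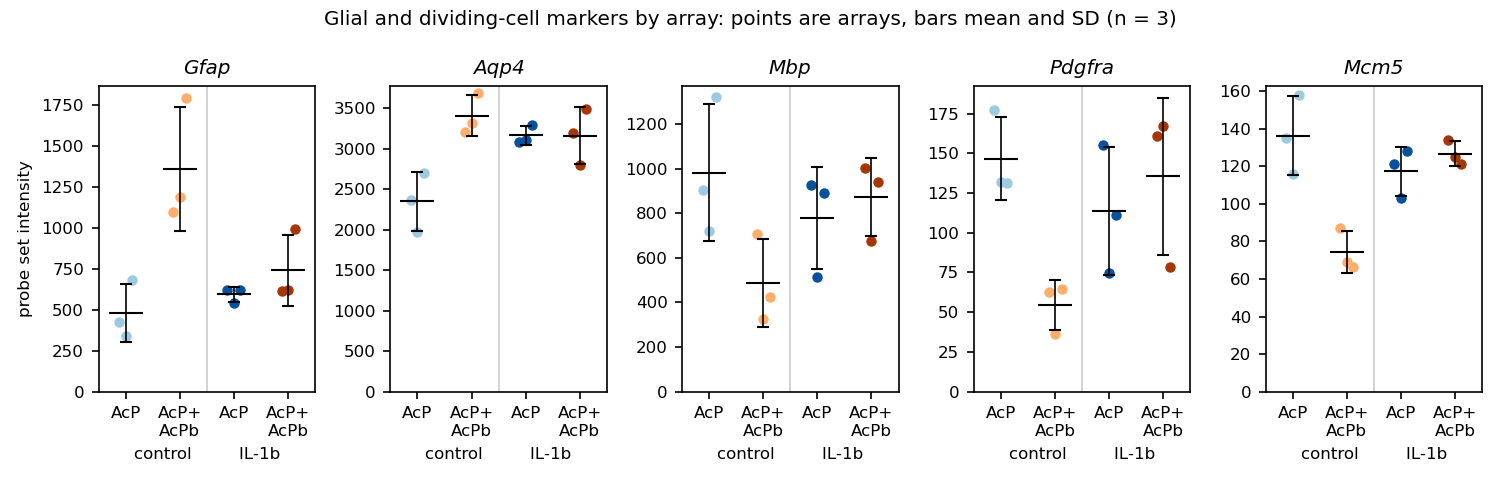
Probe set intensity (y axis) of 5 glial and dividing-cell markers on each of the 12 arrays, for AcP and AcP+AcPb under control (left of the line) and IL-1b (right), with the mean and SD of 3. In the controls Gfap and Aqp4 are higher, and Mbp, Pdgfra and Mcm5 lower, with AcP+AcPb, and under IL-1b the arms overlap for all 5.

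With 3 arrays a group, neither a smaller nor a larger response with AcP+AcPb was called for any single gene. A difference of log2 changes also rests on the control level, which for Cxcl10 and Icam1 was at most 29.2 units on any AcP control. In intensity units 58 of the 83 raised probe sets (69.9%) had the smaller rise with AcP+AcPb, against 46.5% of all probe sets and 47.1% of those with a mean intensity over 100.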

How the data were processed

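Per the labels' protocols, RNA was purified with a column kit (RNeasy), and the Eberwine procedure gave biotin-labelled target. The authors deposited 1 intensity value, on a linear scale, for each probe set and array. The summary and scaling behind these values are not given in the sources used here. No 2 of the 24 arrays held identical values. The number of arrays limits the precision, and 8.26% of probe sets were below 0 on all 12 arrays.

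Groups were taken from the array titles. Values below 0 were set to 0, 16 was added and log2 was taken. The 4 group means were fitted with limma 3.58.1 (R 4.3.3, lmFit and eBayes, 8 residual and 0.61 prior degrees of freedom) on all 45037 probe sets with no filter on dim ones, and p-values are two-sided, adjusted by Benjamini-Hochberg within a contrast and called under 0.05. The fitting steps were tested on simulated data. A ± gives limma's standard error for a log2 value, the standard error for a difference of intensity rises, and the SD of 3 arrays where n is stated. Since the labels do not tell whether replicate arrays stem from different cultures or mice, the p-values reflect only how far these samples spread, which may be technical. An exact permutation test of 3 against 3 cannot go below a p of 0.1, and none was used.

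Symbols came from the array's annotation, which gave 34945 probe sets 1 symbol, 932 several and 9160 none, and promoter windows from RefSeq. Genes were named by rule: the 6 smallest p-values of the difference in each direction, the 25 largest mean responses among called probe sets whose IL-1b and control arrays did not overlap, up to 6 called genes in each direction of each part, up to 4 members of each list with the largest mean response, and Il1rap, Il1r1, Il1r2, Il1rn, Il2ra, Cxcl10, Ccl2 and Nfkbia. Further raised or marker genes are named from the sets described. List values use the brightest probe set of a gene. The comparison, the 18 gene lists and the rules were chosen with earlier results of these data known. Alternatives changed the added constant, the floor, the scale, the normalization, a filter on dim probe sets, the arrays fitted, the probe set rule, replicate and array number blocks, array weights, the variance trend, and each array in turn.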

Additional observations from a re-analysis of the deposited data

How the results depend on the processing

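Response differences were called for 0 probe sets as reported, for 2 with an added constant of 4, 2 with a floor of 32, 1 after quantile normalization, 2 with all 24 arrays in the fit, and for 0 to 16 with 1 array left out. With the array number as a block there were 58 calls, 57 of them lower, but that term fits AcP+AcPb control 3 exactly, and 53 of the 58 were probe sets above 0 on at most 3 of the 12 arrays. No raised gene named for its mean response was called in the difference under any of these. Other raised genes were called in some settings: Lsm7 with 24 arrays and Phf20l1 with the array number block. The dim Mfsd4b5 was called with an added constant of 4, with 24 arrays and without AcP IL-1b 1.

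Calls in the resting part, 10 as reported, were 3 on a generalised log scale that keeps values below 0, 3 and 5 with a filter at the 40th and 60th percentile, 64 with 24 arrays, 5 with probe sets averaged per gene, 83 with the array number block, 2 with array weights and 0 to 44 with 1 array left out. Calls in the stimulated part, 9 as reported, were 0 on the generalised log scale, 1 after quantile normalization, 0 with equal array medians, 0 with either filter, 24 with 24 arrays, 0 with averaged probe sets, 5 with the array number block, 36 with array weights and 5 to 25 with 1 array left out. Calls in the mean response, 99 as reported, were 274 with 24 arrays, 63 with averaged probe sets and 64 to 166 with 1 array left out, 166 without AcP control 3. The causes were not tested.

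Deviations of same-numbered arrays correlated at -0.09 to 0.24, over 0.1 for 2 of 18 pairs. Those of different-numbered arrays correlated at -0.26 to 0.09, over 0.1 for 0 of 36 pairs. Whether the replicate numbers pair the arrays is not stated in the labels and was not tested. With the replicate block there were 0 calls in the difference, 0 in the resting part, 5 in the stimulated part and 63 in the mean response.

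The share of raised probe sets with the smaller AcP+AcPb response, 74.7% as reported, was 85.7% on the generalised log scale and 50% to 89.0% with 1 array left out. Their median difference of -0.21 ran from -0.36 to 0.00 with 1 array left out, the median resting part of 0.14 from 0.06 (without AcP+AcPb control 3 or AcP+AcPb IL-1b 1) to 0.20, and the median stimulated part of -0.02 from -0.17 to 0.09. Of the named genes called in the resting part, Lsm7 was called in 22 of 27 alternatives, Sh2d6 in 16, Fam162a in 11, Ube2c and Med15 in 8 and Ankmy2 in 7, Mapk15 in 12 of 26 and Col8a1 in 7 of 25. Of those called in the stimulated part, Gnl3l was called in 21 of 27, Ankmy2 in 12, Pkm and Gpsm1 in 10, Col4a5 in 8, and Mfsd4b5 in 20 of 25. With a floor of 32 the Col8a1 resting part and the Mfsd4b5 stimulated part were 0, since every array lay at the floor, and no other of these values changed sign.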

Other observations

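Several genes whose resting levels were higher with AcP+AcPb than with AcP had higher values still in the CD25 arm, which received no accessory protein, and this comparison was not tested here. Cxcl10 read 227, 175 and 193 in CD25 controls against 24.3, 56.4 and 82.3 in AcP+AcPb controls and at most 29.2 in AcP controls. Icam1 read 204, 197 and 217 in CD25 controls, and Cebpd, the acute phase factor gene, read 762, 854 and 855, within its range in AcP IL-1b. Socs3, an inhibitor of JAK-STAT signals, read 453, 701 and 592 and Timp1 315, 568 and 428, both above every AcP and AcP+AcPb array. Gfap read 2379, 1279 and 2149 there. Cxcl1 and Ccl2 were not high there, at 19.1 to 43.7 and 55.7 to 74.0 in CD25 controls.

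In AcPb controls Icam1 read 9.5 to 24.6, Cxcl10 4.76 to 16.7, Cebpd 73.9 to 81.8 and Gfap 472 to 759, all of them below the AcP+AcPb controls. All AcPb and CD25 arrays carried the number 21 in their names.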
